A study of Nematostella vectensis with 18 samples.

Results

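The 150 genes described here had lower transcript levels in both reporter-positive populations sorted from sea anemone tentacles than in their reporter-negative counterparts. They were chosen from 23764 genes with any count in the series, by the difference in mean log2(CPM + 1) between positive and negative libraries of each reporter line, Ncol3 and Nep3. CPM is a gene's count relative to the size of its library, here after TMM scaling, which adjusts library sizes for differences in composition. A gene needed a mean of at least 10 CPM in its highest group and a difference of −1 or lower in both lines. These limits were met by 571 genes, and the 150 with the lowest value of the smaller drop were taken.

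Cells came from dissociated tentacles of untreated Nematostella vectensis polyps, which the series calls adult, kept at 18 °C and fed on brine shrimp larvae. The Ncol3-positive and Ncol3-negative populations (4 libraries each) came from the Ncol3::mOrange line, and the Nep3-positive and Nep3-negative populations (5 libraries each) from the Nep3::mOrange line. All 4 groups thus carry a fluorescent reporter transgene. The series was designed to set positive against negative cells within each line. A positive cell is one that fluoresced, whatever its type, and cnidocytes without reporter signal would have been sorted as negative. Nothing in the labels says whether replicates came from separate animals, so p-values measure the spread between these libraries only.

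Cnidocytes are the stinging cells of cnidarians; each builds a capsule from minicollagens and other secreted proteins. Ncol3 codes for a minicollagen of the capsule wall, and Nep3 for a protein stored inside the capsule. The other cells of a sea anemone tentacle include epithelial cells of the epidermis and gastrodermis, contractile epitheliomuscular cells, neurons and gland cells. The gene IDs of the deposited table matched no identifier in the gene name table used here, so the genes are given by ID, with no role, position or sequence. For the same reason, the cell types of the positive and negative populations could not be checked against markers other than the reporter transcript. In sorted bulk RNA, fewer cells of a type and less RNA per cell cannot be told apart.

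The reporter transcript mOrange2 followed the sort labels. It lay between 685 and 1272 CPM in Ncol3-positive libraries, against 213 to 370.3 CPM in Ncol3-negative libraries. In the Nep3 line it lay between 547 and 941 CPM in positive libraries, against 31.8 to 185 CPM in negative libraries. Reporter RNA was therefore present in every negative library, and more of it in the Ncol3 line than in the Nep3 line. Library totals ran from 5463324 to 15269119 counts. Ncol3-positive libraries 1 and 2 had TMM factors of 0.945 and 0.890, and libraries 3 and 4 had 0.590 and 0.537. The labels give all libraries the same batch. The difference in counts between 2 libraries of a group was measured as a chi-square per degree of freedom. It was 7.73 for Ncol3-positive libraries 1 and 2 and 8.59 for libraries 3 and 4. For the other pairs of that group it lay between 72.7 and 100.5, so these libraries fell into pairs. Within the other groups it ranged from 6.54 to 72.5. The cause was not tested.

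The 150 genes made up a small part of the RNA of positive cells. Together they took between 0.224% and 0.357% of the counts in Ncol3-positive libraries, against 2.23% to 2.95% in Ncol3-negative libraries. In the Nep3 line they took between 0.270% and 0.438% in positive libraries, against 1.29% to 1.97% in negative libraries. The ranges of positive and negative libraries are far apart in both lines, as the rule would have it. The median of the 150 genes lay between 6.65 and 8.49 CPM in Ncol3-positive libraries, against 34.1 to 42.9 CPM in Ncol3-negative libraries. In Nep3-positive libraries it lay between 6.56 and 9.49 CPM, against 31.7 to 46.9 CPM in Nep3-negative libraries. Scaling bears on the Ncol3-positive libraries: as shares of raw counts, replicates 1 and 2 held 0.357% each and replicates 3 and 4 held 0.224% and 0.242%. In CPM after TMM scaling the medians of the same 4 libraries were 7.49, 7.71, 6.65 and 8.49, and replicates 1 and 2 no longer stood above replicates 3 and 4.

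**Figure D1:**
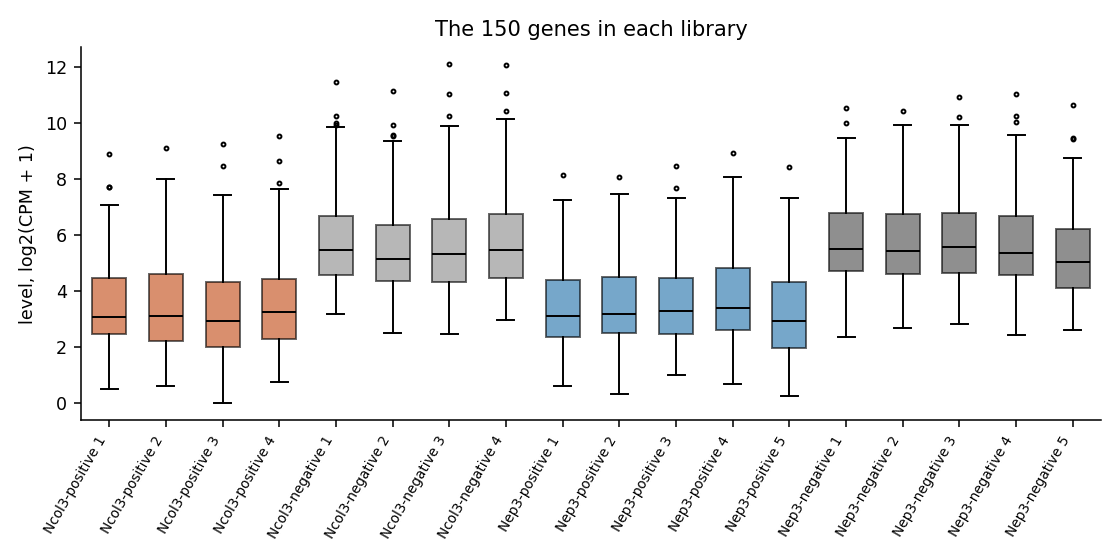
Levels of the 150 genes in each library, in log2(CPM + 1); boxes span the quartiles with the median as a line, whiskers and points follow Tukey's rule. Median levels were 6.65 to 8.49 CPM in Ncol3-positive and 6.56 to 9.49 CPM in Nep3-positive libraries, against 34.1 to 42.9 CPM in Ncol3-negative and 31.7 to 46.9 CPM in Nep3-negative libraries.

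None of the 150 genes was free of counts in positive cells. Averaged over the 9 positive libraries, levels lay between 1.10 and 459 CPM with a median of 7.63 CPM. Over the 9 negative libraries they lay between 8.71 and 2484 CPM with a median of 42.0 CPM. A count of 0 was found for 3 genes, NV2.3027, NV2.11293 and NV2.1336, in 1 positive library each, and for none of the 150 in a negative library. The mean level in positive cells was between 6.39% and 28.4% of that in negative cells in the Ncol3 line, with a median of 19.9%. In the Nep3 line it was between 7.49% and 29.4%, with a median of 20.5%. The upper ends of these ranges follow from taking only the 150 genes with the lowest values of the rule, and the lower ends do not. Whether the RNA left in positive libraries came from the sorted cells themselves was not tested.

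The differences that chose the genes are given as a description. In log2(CPM + 1), their median was −2.17 for Ncol3 and −2.11 for Nep3. Library size in place of TMM scaling gave medians of −2.84 for Ncol3 and −2.13 for Nep3, for the same 150 genes. The closeness of the 2 medians therefore rests on the scaling, and the comparisons of the drops that follow are with TMM scaling. The smaller of the 2 drops was that of the Ncol3 line for 71 genes and that of the Nep3 line for 79. For 140 of the 150 the differences of the lines lay within 0.5 of each other, and for 3 they were more than 1 apart. In the last place inside the rule were NV2.3909 and NV2.17740, with a smaller drop of −1.78 each. The first genes outside it were NV2.24936 and NV2.12487, with −1.77 each, so there is no gap at the border. Of the 18976 genes tested, 7.08% were called lower in both lines by edgeR's quasi-likelihood test (Benjamini-Hochberg adjusted p under 0.05), and 150 of the 150 genes chosen here were. All positive libraries lay below all negative libraries of their line, in both lines, for 5.68% of the genes tested and for 150 of these 150. Both counts restate the rule.

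**Figure D2:**
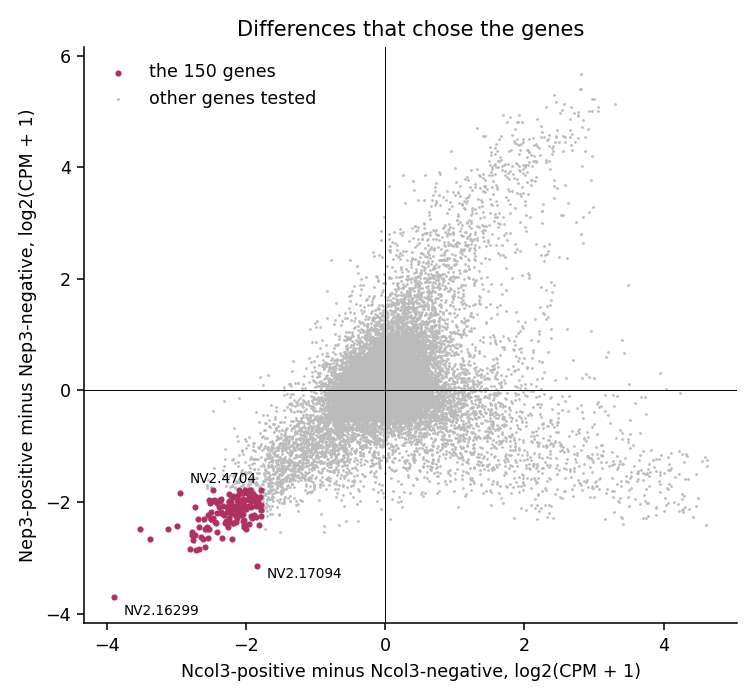
Differences in mean log2(CPM + 1) between positive and negative libraries, in the Ncol3 line (horizontal axis) and the Nep3 line (vertical axis), for the genes tested; the 150 chosen genes are in red. NV2.16299 lies apart at −3.89 and −3.70, while NV2.4704 and NV2.17094 lie off the diagonal.

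The choice can be read against a library that had no part in it, although the libraries it is compared with did. Each of the 18 libraries was left out in turn, 150 genes were chosen from the other 17, and the level of these genes in the omitted library was compared with the opposite population of its line. An omitted positive library lay below every negative library for 150 of 150 genes in 8 of 9 cases, and for 149 in the remaining case, Nep3-positive replicate 3. Among all genes tested this held for between 25.8% and 32.5%. An omitted negative library lay above every positive library for 150 of 150 genes in 8 of 9 cases, and for 149 in the remaining case, Nep3-negative replicate 5. The share of all genes tested was between 25.3% and 30.7%. The genes chosen without a library included between 134 and 146 of the 150. CPM values for this comparison used scaling factors from all libraries. The genes were chosen for large drops in the other libraries of the same groups. Such high counts therefore follow largely from the rule, and they are given as a description.

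The first gene of the ranking was NV2.16299. It was at 21.4, 24.0, 36.4 and 29.1 CPM in Ncol3-positive libraries 1 to 4, against 549, 372, 439 and 341 CPM in Ncol3-negative libraries. In the Nep3 line it was at 31.8, 20.3, 21.6, 33.8 and 22.8 CPM in Nep3-positive libraries 1 to 5, against 417, 361, 355, 341 and 266 CPM in Nep3-negative libraries. Its mean in positive cells was 6.52% of that in negative cells for Ncol3, and 7.49% for Nep3. The differences of -3.89 and -3.70 were the lowest of the 150 in each line, and the next gene of the ranking, NV2.10394, had -2.80 and -2.84. In the Ncol3 line alone, NV2.1202 with -3.52 and NV2.4047 with -3.37 came closer. The levels of NV2.16299 in the 2 positive populations overlapped, as did those in the 2 negative populations.

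NV2.10394 was at 41.6, 42.6, 37.2 and 44.5 CPM in Ncol3-positive libraries 1 to 4, against 334, 289, 241 and 320.1 CPM in Ncol3-negative libraries. Its Nep3 values were 29.0, 38.1, 27.4, 40.3 and 23.5 CPM in Nep3-positive libraries 1 to 5, against 251, 212, 289, 289 and 139 CPM in Nep3-negative libraries. Its highest positive library was at 44.5 CPM, and its lowest negative library at 139 CPM. NV2.4047 had the lowest mean of the first 10 genes in Ncol3-positive cells. It was at 1.82, 1.44, 2.49 and 5.00 CPM in Ncol3-positive libraries 1 to 4, against 34.5, 26.4, 37.7 and 42.8 CPM in Ncol3-negative libraries. The Nep3 line had 6.31, 10.4, 8.62, 6.44 and 4.06 CPM in Nep3-positive libraries 1 to 5, against 51.6, 45.1, 63.1, 49.2 and 38.4 CPM in Nep3-negative libraries. The remaining level of NV2.4047 was thus 7.60% for Ncol3, and 14.5% for Nep3.

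NV2.5358, NV2.3509 and NV2.3425 were the abundant ones among the first 10. NV2.5358 averaged 157 ± 34.7 CPM in Ncol3-positive cells and 1073 ± 291 CPM in Ncol3-negative cells (SD, n = 4 each). In Nep3-positive cells it averaged 70.6 ± 25.5 CPM, against 479 ± 232 CPM in Nep3-negative cells (SD, n = 5 each). NV2.3509 averaged 142 ± 24.8 CPM in Ncol3-positive and 901 ± 192 CPM in Ncol3-negative cells, and 90.3 ± 26.0 CPM in Nep3-positive against 559 ± 152 CPM in Nep3-negative cells. All 3 genes had a higher mean in the Ncol3 line than in the Nep3 line, in positive as well as negative cells. NV2.3425 averaged 108 ± 11.2 CPM in Ncol3-positive and 667 ± 109 CPM in Ncol3-negative cells, and 67.3 ± 19.7 CPM in Nep3-positive against 457 ± 212 CPM in Nep3-negative cells. The other genes of the first 10, NV2.16569, NV2.3389, NV2.15453 and NV2.21610, had means between 4.67 and 12.2 CPM in positive populations, against 36.0 to 94.7 CPM in negative populations.

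**Figure D3:**
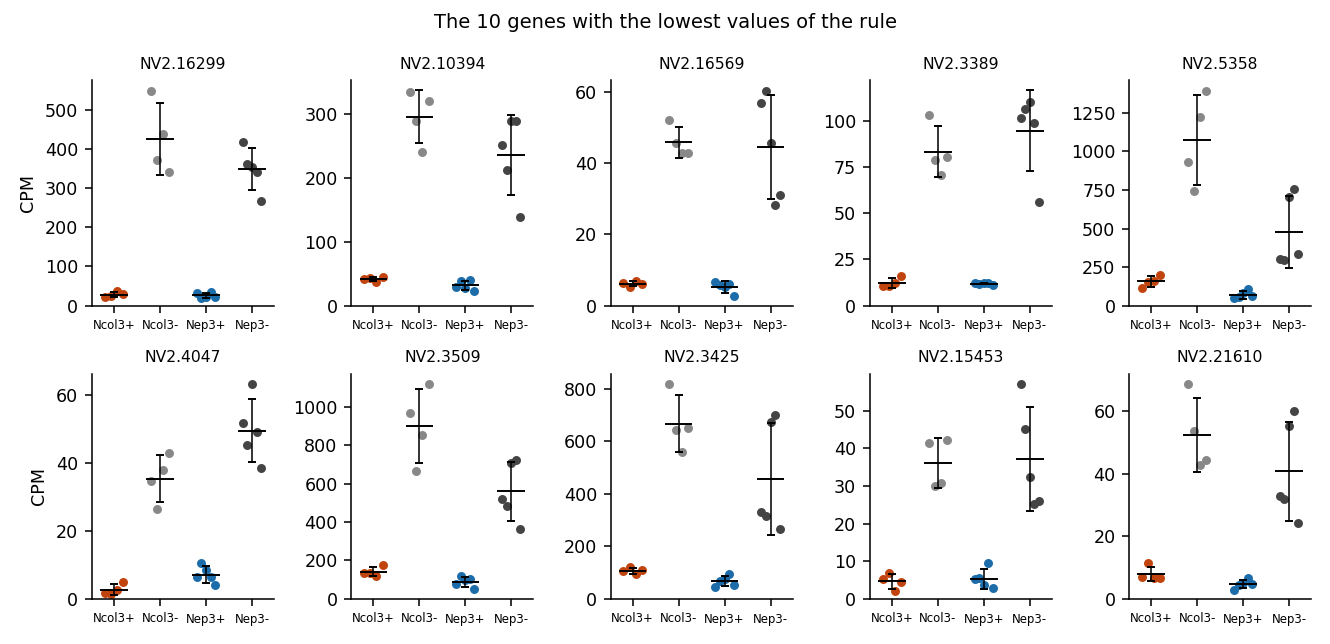
CPM of the 10 genes with the lowest values of the rule; points are libraries, bars the mean and SD, with n = 4 per group in the Ncol3 line and n = 5 in the Nep3 line (plus signs mark positive and minus signs negative populations, and each panel has its own axis from 0). Every positive library lies below every negative library of its line in all 10 panels.

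The most abundant of the 150 genes was NV2.10038. It was at 482, 548, 605 and 753 CPM in Ncol3-positive libraries 1 to 4, against 2829.9, 2297, 4402 and 4319 CPM in Ncol3-negative libraries. Libraries of the Nep3 line had 284, 272, 354, 490.2 and 341 CPM in Nep3-positive libraries 1 to 5, against 1492, 1392, 1942, 2088 and 1589.7 CPM in Nep3-negative libraries. NV2.19485, the next, was at 212, 259, 352 and 400.1 CPM in Ncol3-positive libraries 1 to 4, against 1209.6, 987, 2098 and 2185 CPM in Ncol3-negative libraries. In the Nep3 line NV2.19485 was at 144, 132, 205, 272 and 160.0 CPM in Nep3-positive libraries 1 to 5, against 704, 682, 979, 1052 and 715 CPM in Nep3-negative libraries. In both genes Ncol3-negative libraries 3 and 4 were above libraries 1 and 2, and so were the Ncol3-positive libraries of the same numbers. Libraries 3 and 4 were also the highest of the Nep3 line, in positive and negative cells alike. NV2.17305, with 207 ± 24.5 CPM in Ncol3-positive and 959 ± 169 CPM in Ncol3-negative cells, showed no such order in the Ncol3 line. The 5 most abundant genes held 32.6% of the summed negative CPM of the 150, and 36 of the 150 had a negative mean of at least 100 CPM.

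Libraries with the same number were compared for all 150 genes, since the spread within a group has no part in the rule. For each gene the deviations of the 9 positive libraries from their group means were correlated with those of the same-numbered negative libraries. Pearson's r over the 9 pairs had a median of 0.34 over the 150 genes and Spearman's rho a median of 0.24. The 11527 other genes tested that also reached 10 CPM in their highest group had medians of 0.14 and 0.12. Pearson's r was over 0.5 for 34.7% of the 150 genes and for 21.8% of those others. Across genes within a pair of libraries, the picture differed between the lines. In the Nep3 line, same-numbered libraries correlated with a mean r of 0.24 over the 150 genes, against 0.16 over those others, and the 150 were above in 5 of 5 pairs. In the Ncol3 line the mean r was 0.27 over the 150 genes, against 0.32 over those others, and the 150 were above in 1 of 4 pairs. Some libraries of different numbers correlated as strongly over the 150 genes: positive replicate 1 and negative replicate 2 had r = 0.52 in each line. These are descriptions with no p-value: both libraries of a pair may share tissue and handling, and all genes of a library share its scaling factor. All 150 genes use the same 9 pairs and can shift together in a library, so they are not independent. The labels do not state that the numbers pair the libraries.

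**Figure D4:**
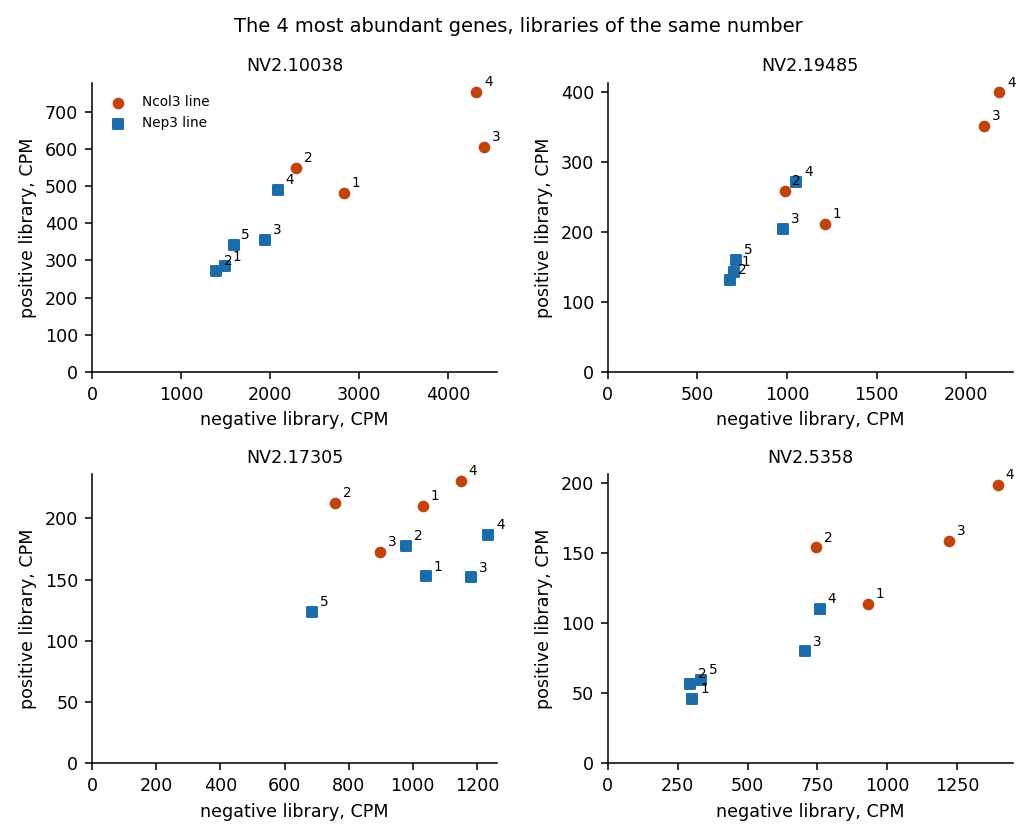
CPM of the 4 most abundant genes in each positive library (vertical axis) against the negative library with the same number in its line (horizontal axis); circles are the Ncol3 line, squares the Nep3 line and the digits the replicate numbers. For NV2.10038 and NV2.19485, libraries 3 and 4 lie highest in each line on the negative axis, and the highest positive library is replicate 4 in both lines.

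Nep3-negative replicate 5 held less of these transcripts than the rest of its group. The median deviation of the 150 genes from the group mean was −0.41 in log2(CPM + 1) in this library, against 0.01 to 0.15 in the other 4, while that of all genes tested was 0.000164. Its 20 highest genes took 19.2% of the counts, the highest share of the group, and its mOrange2 level was 131 CPM, against 31.8 to 45.3 CPM in replicates 1 to 3 and 185 CPM in replicate 4. The part of these in the lower levels was not tested. Nep3-positive replicate 5 was also the lowest of its group, with a median deviation of −0.27. Without Nep3-negative replicate 5 the median difference of the 150 genes in the Nep3 line was −2.23, against −2.11 with it.

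The lines were then compared with each other, since the rule did not use these comparisons, although it used the same libraries. Line and any handling that went with it cannot be told apart. Between Nep3-positive and Ncol3-positive cells, 14 of the 150 genes were called higher (9.33%) and 19 lower (12.7%), where 19.1% and 17.4% of the 18976 genes tested were called higher and lower (edgeR quasi-likelihood test with the same adjustment and threshold as above). Both shares are below the background. However, the 150 genes were chosen for low levels in positive cells relative to negative cells, and their median there was 7.63 CPM. No share was taken over genes of like level, so nothing is read from the lower shares. The median log2 fold change was 0.05 for the 150 genes and 0.07 for all genes tested. With library size in place of TMM scaling, 56 of the 150 were called higher and 2 lower, where 42.1% and 8.66% of all genes tested were called higher and lower, and the median of all genes tested moved to 0.56. The split by direction therefore rests on the scaling. With only Ncol3 replicates 1 and 2 the counts were 9 higher and 11 lower, where 11.4% and 11.6% of the genes then tested were called. With only replicates 3 and 4 they were 21 and 9, where 21.4% and 15.9% were called. The count of 19 lower fell to 11 without Ncol3-positive replicate 4, to 11 without Nep3-positive replicate 1 and to 9 without Nep3-positive replicate 5, where 14.4%, 14.7% and 14.8% of the genes then tested were called lower.

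Between Nep3-negative and Ncol3-negative cells, 5 of the 150 genes were called higher (3.33%) and 9 lower (6%), where 4.94% and 3.5% of all genes tested were called higher and lower. The median log2 fold change was 0.03 for the 150 and 0.01 for all genes tested. The share called higher is below the background and the share called lower is above it, on 5 and 9 genes. No share was taken over genes of like level here either, so nothing is read from these shares. Without Ncol3-negative replicate 4, 4 genes were called lower, where 2.66% of the genes then tested were. With only Ncol3 replicates 1 and 2 the counts were 5 higher and 4 lower, where 5.25% and 3.16% were called. With only replicates 3 and 4 they were 6 and 10, where 3.09% and 2.04% were called.

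Of the 150 genes, 12 passed the threshold in both of these comparisons, and all 12 had the same direction in positive and in negative cells. Of all genes tested, 5.91% passed in both and 3.14% did so in the same direction, which is 53.1% of those that passed in both. The rule asks for a large drop in both lines, and most of the chosen genes had drops close to each other. Where the drops are close, the line differences of positive and negative cells are close too, so the choice favours a shared direction. The 4 higher in the Nep3 line were NV2.19896, NV2.1203, NV2.10578 and NV2.6806. The 8 lower in the Nep3 line were NV2.19057, NV2.10281, NV2.652, NV2.5358, NV2.14921, NV2.10038, NV2.19485 and NV2.6785. A further 21 passed between the positive populations only and 2, NV2.14509 and NV2.9489, between the negative populations only, and 115 passed in neither. Among all genes tested the shares were 30.6%, 2.53% and 60.9%. Across the 150 genes Pearson's r between the 2 sets of log2 fold changes was 0.81, against 0.17 across all 18976 genes tested. The comparisons share no library, but the close drops of the chosen genes raise the value in the same way, and genes are not independent replicates.

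**Figure D5:**
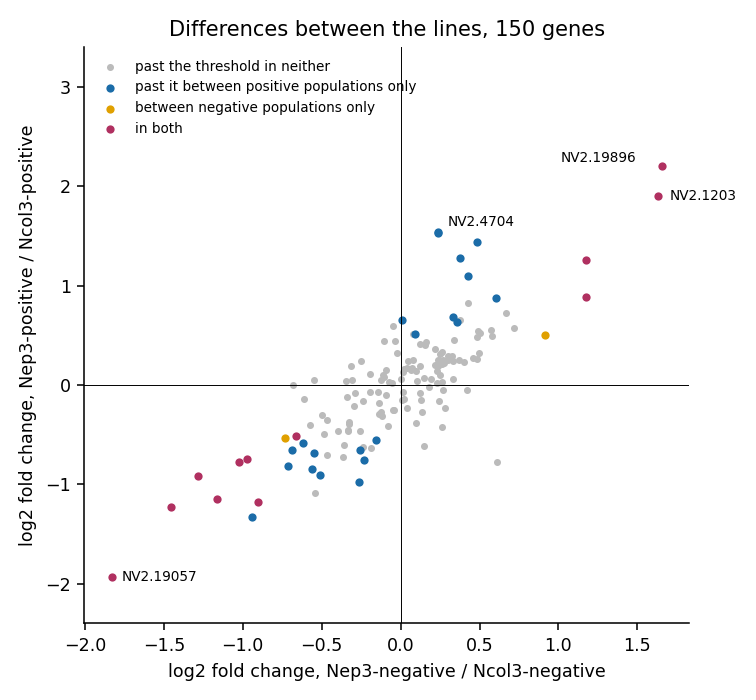
Log2 fold changes of the 150 genes between the lines, in negative cells (horizontal axis, Nep3-negative over Ncol3-negative) and in positive cells (vertical axis, Nep3-positive over Ncol3-positive), coloured by which of the edgeR tests passed an adjusted p of 0.05. The 12 genes past it in both comparisons lie in the upper right (4) and lower left (8).

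The clearest line difference was that of NV2.19057. It was at 24.4, 28.0, 34.5, 34.4 and 20.8 CPM in Nep3-positive libraries, against 114, 128, 101 and 91.8 CPM in Ncol3-positive libraries (log2 fold change -1.94, SE 0.20, edgeR adjusted p = 6.01e-08). In negative cells it was at 148, 142, 181, 199 and 97.1 CPM in Nep3-negative libraries, against 699.6, 543, 436 and 503 CPM in Ncol3-negative libraries (log2 fold change -1.83, SE 0.20, edgeR adjusted p = 1.40e-06). The groups of the 2 lines did not overlap in either comparison. The level left in positive cells was close between the lines, at 18.5% in the Nep3 line and 19.9% in the Ncol3 line.

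NV2.19896 differed the other way. It was at 27.8, 30.7, 42.2, 36.8 and 24.5 CPM in Nep3-positive libraries, against 5.78, 5.62, 4.32 and 12.7 CPM in Ncol3-positive libraries (log2 fold change 2.20, SE 0.34, edgeR adjusted p = 4.03e-05). In negative cells it was at 109, 91.7, 209, 189.6 and 85.0 CPM in Nep3-negative libraries, against 50.0, 29.0, 46.1 and 48.5 CPM in Ncol3-negative libraries (log2 fold change 1.65, SE 0.31, edgeR adjusted p = 0.00175). The lowest Nep3-negative library of this gene was still above the highest Ncol3-negative library. NV2.1203 averaged 11.0 ± 6.19 CPM in Nep3-positive and 3.04 ± 1.28 CPM in Ncol3-positive cells (log2 fold change 1.90, SE 0.41, edgeR adjusted p = 0.00123). In Nep3-negative cells it averaged 68.9 ± 18.7 CPM, against 22.2 ± 5.81 CPM in Ncol3-negative cells (log2 fold change 1.63, SE 0.34, edgeR adjusted p = 0.00488).

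The other 2 genes higher in the Nep3 line in both comparisons had lower levels. NV2.10578 averaged 28.0 ± 5.82 CPM in Nep3-negative and 12.3 ± 1.76 CPM in Ncol3-negative cells (log2 fold change 1.17, SE 0.20, edgeR adjusted p = 0.000429). NV2.6806 averaged 29.1 ± 9.32 CPM in Nep3-negative and 12.8 ± 2.81 CPM in Ncol3-negative cells (log2 fold change 1.17, SE 0.24, edgeR adjusted p = 0.00294). In positive cells both were at no more than 8.21 CPM in any library.

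Among those lower in the Nep3 line, NV2.14921 was nearly constant in Ncol3-positive cells. It was at 56.0, 50.1, 71.0, 98.3 and 61.7 CPM in Nep3-positive libraries, against 127, 129, 128 and 126 CPM in Ncol3-positive libraries (log2 fold change -0.91, SE 0.17, edgeR adjusted p = 0.000152). In negative cells it was at 210.3, 207, 232, 252 and 246 CPM in Nep3-negative libraries, against 504, 447, 604 and 679 CPM in Ncol3-negative libraries (log2 fold change -1.28, SE 0.17, edgeR adjusted p = 2.17e-05). It also kept the highest share in Nep3-positive cells of all 150 genes, 29.4%. NV2.10281 averaged 10.5 ± 3.12 CPM in Nep3-positive and 24.9 ± 6.26 CPM in Ncol3-positive cells (log2 fold change -1.23, SE 0.31, edgeR adjusted p = 0.00416). Between negative cells its log2 fold change was -1.46 (SE 0.29, edgeR adjusted p = 0.00351). NV2.5358 was lower in Nep3-negative than in Ncol3-negative cells (log2 fold change -1.16, SE 0.30, edgeR adjusted p = 0.019), but without Ncol3-negative replicate 4 its edgeR adjusted p was 0.0669. For NV2.652 and NV2.3026 the differences between positive cells (-1.18 and -1.32, edgeR adjusted p = 0.0109 and 0.0141) rested on levels of at most 4.17 CPM. The call for NV2.652 was lost without Ncol3-positive replicate 4 (edgeR adjusted p = 0.0513), with only the 2 groups compared (0.0596), with only Ncol3 replicates 1 and 2 (0.121) and with library size only (0.157), and with voom the limma adjusted p was 0.119. Its place among the 12 genes rests on that call. The call for NV2.3026 was lost without Nep3-positive replicate 5 (edgeR adjusted p = 0.0532), without Ncol3-positive replicate 1 (0.0659), with library size only (log2 fold change −0.89, adjusted p = 0.122) and with only Ncol3 replicates 3 and 4 (log2 fold change −0.53, adjusted p = 0.492). With voom the limma adjusted p of NV2.3026 was 0.0552.

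Genes whose drops differed most between the lines were few. NV2.4704 was at 4.75, 6.14, 4.06, 7.04 and 5.54 CPM in Nep3-positive libraries, against 2.36, 2.61, 0.166 and 2.17 CPM in Ncol3-positive libraries (log2 fold change 1.54, SE 0.33, edgeR adjusted p = 0.000749). In negative cells it was at 30.4, 24.4, 24.9, 16.2 and 16.6 CPM in Nep3-negative libraries, against 17.6, 19.4, 20.4 and 18.7 CPM in Ncol3-negative libraries, which overlap (edgeR adjusted p = 0.665). Its level in positive cells was 24.5% of the negative level in the Nep3 line and 9.58% in the Ncol3 line. The very low value of 0.166 CPM in Ncol3-positive replicate 3 lowers the Ncol3-positive mean and so widens the difference between the drops of this gene. NV2.1202 was at 5.96, 6.39, 8.82, 5.07 and 2.97 CPM in Nep3-positive libraries, against 0.749, 2.22, 1.33 and 4.00 CPM in Ncol3-positive libraries (log2 fold change 1.53, SE 0.44, edgeR adjusted p = 0.0105), but with only Ncol3 replicates 3 and 4 the edgeR adjusted p was 0.0874. It had the lowest share left in Ncol3-positive cells of all 150 genes, 6.39%, against 15.3% in Nep3-positive cells.

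NV2.17094 and NV2.3588 kept more in Ncol3-positive cells. NV2.17094 was at 4.50, 6.01, 6.65 and 16.7 CPM in Ncol3-positive libraries 1 to 4, against 33.0, 22.4, 18.7 and 53.0 CPM in Ncol3-negative libraries. Its Nep3 values were 5.53, 6.77, 4.77, 6.61 and 1.01 CPM in Nep3-positive libraries 1 to 5, against 56.7, 46.2, 54.6, 55.3 and 28.4 CPM in Nep3-negative libraries. Its differences were -3.15 in the Nep3 line and -1.84 in the Ncol3 line, and Ncol3-positive replicate 4 had the highest value of its group. NV2.3588 had -2.42 in the Nep3 line and -1.82 in the Ncol3 line. Neither gene passed the threshold between the positive populations (edgeR adjusted p = 0.238 and 0.208), and whether their drops differed between the lines was not tested.

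The spread between replicates is given last. The median biological coefficient of variation, edgeR's estimate of the spread beyond counting error, was 23.7% for the 150, against 23.7% for all genes tested and 19.3% for genes tested with a negative mean at least as high as the lowest of the 150. The estimate takes positive and negative libraries together, and the 150 were chosen for low levels in positive cells. The last set was limited by its negative mean alone, so nothing is read from the difference.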

How the data were processed

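The deposited file holds raw counts per gene in 18 libraries, with no normalization by the authors; the unit was taken from the values. Trimmomatic, STAR 2.7.10a and featureCounts 2.0.1 are named, with no settings, per the submitters' processing notes. The genome build, annotation, strand setting and filters are not given in the sources used here, so near-identical and overlapping genes are uncertain. Libraries were poly(A)-selected and directional, per the labels' protocols.

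Groups and replicate numbers follow the titles; the design text gives 4 replicates per condition, and all descriptions of Nep3-positive libraries give the number 1. TMM factors were computed over the 23764 NV2 genes with a count (edgeR 4.0.16, R 4.3.3), and the pseudocount of the rule was 1 CPM. After filterByExpr on the 4 groups, 18976 genes were tested, among them all 150, with 1 robust quasi-likelihood fit of 4 group means, two-sided, with Benjamini-Hochberg adjustment over all genes at 0.05. The fit was also run on simulated counts in which the groups differed only by planted changes. That setting lacks the differences between positive and negative cells seen here, so nothing is read from it. Alternatives included DESeq2 1.42.0 and voom with quality weights (limma 3.58.1). Standard errors are the log2 fold change divided by the square root of F.

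Named genes are the first 10 of the rule, the 4 most abundant, the 4 highest and 4 lowest called log2 fold changes per comparison between lines, the 2 largest and 2 smallest differences between the drops, the border of the rule, and runs of consecutive IDs. Counts of 5 or fewer, genes past the threshold in both comparisons between lines and genes with a count of 0 were named after their values were seen. The genes, the rule and the lists were chosen with earlier results of these data known. A planned list of cell type markers was matched for mOrange2 alone.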

Additional observations from a re-analysis of the deposited data

Results flagged for a closer look

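Among 128 sets of CPM values, 1 for each named gene, for mOrange2 and for the summed CPM of the 150 genes in each group, 4 held a library far from the others of its group by Dixon's test (3.13%); chance gives about 1 in 20. NV2.21610 was at 11.4 CPM in Ncol3-positive replicate 2, above 6.65 to 6.96 CPM in the other 3. NV2.3909 was at 6.48 CPM in Ncol3-positive replicate 3, below 11.6 to 12.0 CPM. NV2.3389 was at 56.3 CPM in Nep3-negative replicate 5, below 99.0 to 110.3 CPM, in the library in which most of the 150 genes were low. NV2.3026 was at 12.2 CPM in Nep3-negative replicate 2, above 5.77 to 7.43 CPM.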

How the results depend on the processing

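Of 480 repeats of the 16 log2 fold changes between the lines for the named genes, 466 kept their direction and their side of the threshold, 14 kept the direction without passing, and 0 reversed. Of those lost, with only Ncol3 replicates 1 and 2, NV2.10281 and NV2.652 between positive cells and NV2.5358 between negative cells had edgeR adjusted p-values of 0.0535, 0.121 and 0.203. The counts of genes called between positive cells (14 higher, 19 lower) became 56 and 2 with library size only, and 9 and 11 with only Ncol3 replicates 1 and 2; with only replicates 3 and 4, 9 were lower. Between negative cells (5 higher, 9 lower), voom with quality weights gave 9 higher, where 6.51% of all genes tested were called. Only Ncol3 replicates 1 and 2 gave 4 lower, where 3.16% were called. The cause was not tested, apart from fewer libraries in the Ncol3 subsets. Leaving out each library gave 10 to 18 higher and 9 to 20 lower between positive cells. Of the genes then tested, 15.6% to 21.9% were called higher and 14.4% to 17.8% lower. Between negative cells the counts were 5 to 7 higher and 4 to 11 lower, where 2.85% to 5.21% and 2.48% to 3.85% were called. The rule chose 134 to 146 of the 150 genes again. Other scalings, pseudocounts and level limits chose between 106 (a pseudocount of 5) and 147 (DESeq2 size factors) again. TMM factors computed after the filter, an alternative chosen after seeing the data, gave 16 higher and 16 lower between positive cells. Of all genes tested, 20.7% and 16.5% were then called higher and lower.

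The labels do not say that replicate numbers pair libraries, and the deviations of same-numbered libraries within a line correlated between −0.03 and 0.33 over all genes tested, not over 0.1 in every pair. In a fit with a block for the replicate number, the same for both lines, 20 genes were higher and 17 lower between positive cells. Of all genes tested, 18.8% and 17.0% were called. Between negative cells 8 were higher and 9 lower, where 5.62% and 4.04% were called. In another fit, with a block for the number within each line, 150 were called lower in both lines, which restates the rule. Single counts of genes under 3 CPM in positive cells limit their differences.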

Other observations

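Consecutive ID numbers occurred among the 150 genes. A neighbour by number that was itself among the 150 was found for 23 genes (15.3%), in 11 runs. Of the other 18826 genes tested, 0.993% were consecutive to one of the 150. The longest run had 3 genes, NV2.3026, NV2.3027 and NV2.3028, with means of 1.20, 2.12 and 1.13 CPM in Nep3-positive cells, against 7.66, 14.1 and 9.65 CPM in Nep3-negative cells. In the Ncol3 line the same genes had 2.94, 3.17 and 2.35 CPM in positive cells, against 14.8, 16.2 and 14.1 CPM in negative cells. In all 3 genes replicate 2 was the highest library of both negative populations. NV2.1202 and NV2.1203 were consecutive too, and of these NV2.1203 passed the threshold between the negative populations and NV2.1202 did not (edgeR adjusted p = 0.00488 and 0.75).

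The 187 genes tested that were consecutive to one of the 150 but not among them had a median log2 fold change, positive over negative cells, of −0.20 in the Nep3 line and −0.25 in the Ncol3 line, against 0.01 and 0.02 for all genes tested. Of the 187, 33 were called lower in both lines (17.6%), against 7.08% of all genes tested. Whether the ID order follows the genome is not given in the sources used here, and reads shared between near-identical neighbours could give them like values; neither was tested.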
